A study of Mus musculus with 15 samples.

Results

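Whole blood from 10 mice labelled with αCTLA-4 treatment was compared with whole blood from 5 untreated mice, across every gene that could be tested, to ask which transcripts were shifted in the same direction in both treated groups. The 15 libraries, 1 per mouse, are the whole series, and each entered the comparison through its label. The animals were C57BL/6 mice. The labels of all 15, untreated mice included, describe an orthotopic transplant of 4MOSC1 cells, a mouse oral squamous cell carcinoma line, into the tongue and 10 days of growth. The 10 treated mice had 2 doses of αCTLA-4 antibody and a neck dissection (ND), the surgical removal of the draining neck lymph nodes. In 5 of them the ND was labelled early and in 5 late, and these groups are kept apart below as early ND and late ND. The untreated mice were labelled as having neither antibody nor surgery. Antibody and surgery therefore cannot be told apart in this comparison, and the study's description leaves unclear whether the late ND mice were bled before or after their operation. The words "after late ND" below name the group with that label and do not say that its blood was drawn after the operation. Only 1 tumor line was used, and blood came from cheek bleeds.

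CTLA-4 is an inhibitory receptor of T cells that competes with the costimulatory receptor CD28 for the ligands CD80 and CD86 on antigen-presenting cells. Antibodies that block it release T cell activation, mainly in lymph nodes, and some forms also deplete regulatory T cells, which carry high levels of the receptor and depend on the transcription factor Foxp3. Whole blood holds reticulocytes and platelets as well as neutrophils, monocytes and lymphocytes, so a shift in 1 gene can follow a shift in the mixture. In bulk RNA, fewer cells of a type and less RNA per cell cannot be told apart.

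Between 5527110 and 13924400 read pairs per library were counted on genes. The pan-leukocyte gene Ptprc, the B cell gene Cd79a, the T cell gene Cd3e, the platelet gene Pf4 and the hemoglobin gene Hbb-bs were detected in every library, while the skin keratin Krt14 did not exceed 0.803 CPM, a count scaled to the total of its library. Other genes of tissues outside blood reached more in single libraries. The highest values were 3.63 CPM for the keratin Krt5, 29.1 for the epithelial gene Epcam, and 9.13 and 3.68 for the muscle genes Acta1 and Ckm. Levels are given as CPM after TMM normalisation, which rescales library totals so that most genes have a fold change near 1. The 4 main hemoglobin genes held 48.4% ± 12.7 of gene counts in untreated, 48.5% ± 10.4 in early ND and 21.97% ± 6.73 in late ND mice (SD, n = 5 each). The 10 treated and 5 untreated mice differed by -13.1 percentage points (exact permutation of the labels, two-sided, p = 0.141, with an adjusted p of 0.187 over 4 library measures). The late ND mice by themselves differed from untreated mice by -26.4 points (exact permutation test, p = 0.00794, adjusted p = 0.0159), with every late ND library below every untreated one. In 3 libraries, untreated 2, late ND 2 and late ND 3, the 18S ribosomal RNA gene Rn18s-rs5 lay between 313 and 766 CPM of the library total, against 13402 or more in the others. For gene counts, 18S level and the share of read pairs aligned to more than 1 place, the 10 against 5 comparison gave p = 0.302, p = 0.126 and p = 0.137 (exact permutation tests, adjusted p from 0.187 to 0.302).

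**Figure D1:**
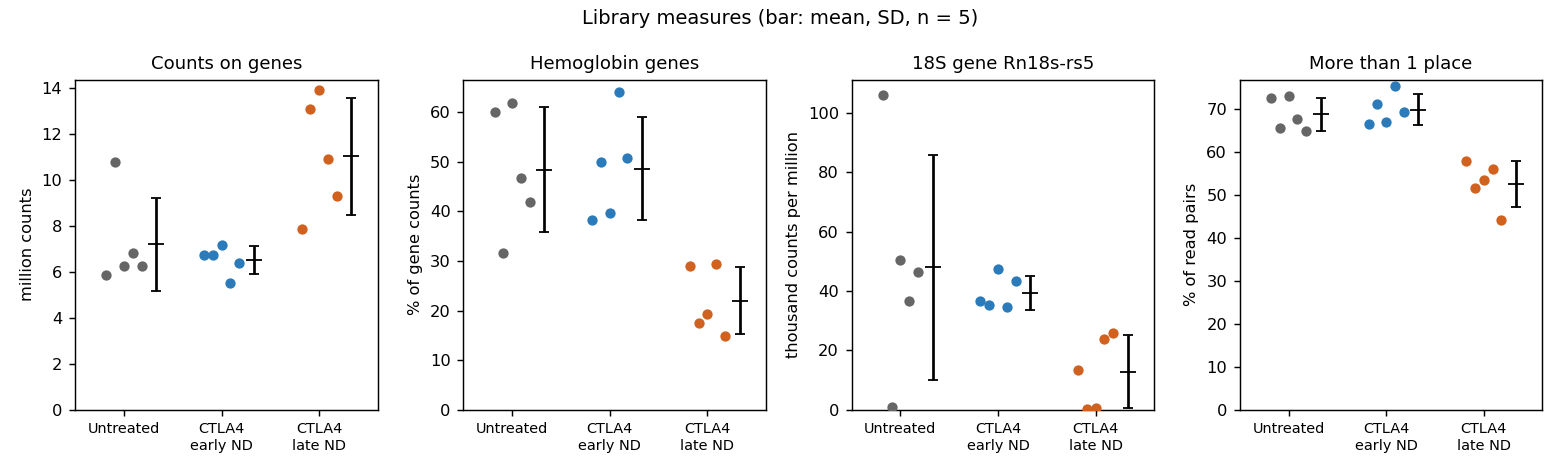
Counts on genes, hemoglobin share of gene counts (%), the Rn18s-rs5 level (scaled CPM of the library total) and read pairs aligned to more than 1 place (%), with 1 point per library and the mean and SD (n = 5) of each group beside the points. Early ND and untreated libraries overlap in every panel, and the late ND hemoglobin shares, with a mean of 21.97%, lie below all untreated ones.

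Of 13421 genes tested, 0 were higher and 0 lower in the treated mice at an adjusted p under 0.05 with the same direction in both groups, each 0% of genes tested (edgeR's quasi-likelihood test of the mean of the early ND and late ND groups against untreated mice, Benjamini-Hochberg adjustment, smallest adjusted p = 0.350). At an unadjusted p under 0.05 and with a shared direction, 484 genes (3.61%) were on the higher side and 457 (3.41%) on the lower side. DESeq2's Wald test passed 8 genes on the higher and 5 on the lower side, of which 8 and 4 are described below, and limma voom passed 0 and 0. Scaled by library totals alone, the unadjusted counts became 1845 and 13, since the median log2 fold change over the 13421 genes moved by 0.47. Directions below are therefore relative to the typical gene. A stricter question is whether a gene was shifted in each treated group by itself. Again 0 genes passed in either direction after adjustment of the larger of the 2 p-values (edgeR, Benjamini-Hochberg), with 82 higher (0.611%) and 42 lower (0.313%) at an unadjusted p under 0.05 in both groups. The 2 groups share the untreated mice, so they are not independent. Against untreated mice, early ND passed 0 genes after adjustment (0%, edgeR, with 0.842 as the smallest adjusted p), with 748 (5.57%) at an unadjusted p under 0.05, and late ND passed 321 (2.39%). The genes named next are the 10 with the smallest unadjusted p in each direction among those with a shared direction and a mean of at least 50 counts, and none of the 20 passed the adjusted threshold. Of these, 10 on the higher side and 9 on the lower side are described.

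On the lower side, 3 genes belong to the T cell receptor machinery. Lat is the membrane adaptor that links the triggered T cell receptor to downstream signalling. Lat (ENSMUSG00000030742, chromosome 7 of GRCm39, 125962996 to 125968810) was at 69.5, 91.6, 62.1, 59.8 and 77.9 CPM in the untreated mice, at 55.7, 59.1, 48.9, 58.8 and 50.9 after early ND and at 47.9, 54.1, 53.0, 47.2 and 49.6 after late ND. All 10 treated mice lay below the lowest untreated mouse. The log2 fold change was -0.47 (SE 0.10, unadjusted p = 0.000249, adjusted p = 0.350 from edgeR's test), with -0.41 after early ND and -0.52 after late ND.

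Trbc2 encodes a constant region of the T cell receptor beta chain (ENSMUSG00000076498, chromosome 6, 41523664 to 41525286). It was at 79.6, 96.1, 84.3, 76.7 and 64.3 CPM in untreated mice, at 60.9, 71.4, 35.7, 78.3 and 65.9 after early ND and at 46.2, 55.1, 48.5, 50.1 and 39.5 after late ND. The late ND mice were all below the untreated mice, and 2 of the 5 early ND mice were. Its log2 fold change was -0.56 (SE 0.15, unadjusted p = 0.00148, edgeR), with -0.37 after early ND and -0.74 after late ND. Reads from Trbc2 and its near-identical neighbour Trbc1 may have been split by the counting, and Trbc1 had a log2 fold change of -0.35. Themis, a protein of T cell receptor signalling in developing T cells, had -0.46 (unadjusted p = 0.00172, edgeR).

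Eif4e, the cap-binding translation factor, had a log2 fold change of -0.40 after early ND and -0.35 after late ND. The other lower genes described were Igfbp4, an insulin-like growth factor binding protein that naive mouse T cells express (log2 fold change -0.47), Dynlt3, a dynein light chain (-0.47), Ndufa4, a subunit of the respiratory chain (-0.50), Trmt10c, which processes mitochondrial transfer RNA (-0.56), and Hbq1a, a globin gene of the alpha cluster (-1.33). Igfbp4 averaged 83.4 ± 9.93 CPM in untreated, 67.2 ± 4.66 in early ND and 53.7 ± 6.41 in late ND mice (SD, n = 5 each), and 9 of the 10 treated mice lay below every untreated mouse. Hbq1a had -0.74 after early ND and -1.92 after late ND, beside a hemoglobin share of gene counts that was lower in the late ND mice. The part of that share in the shift of Hbq1a was not tested, and reads may be split between Hbq1a and its near-identical copy Hbq1b.

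On the higher side, the genes serve unrelated roles. Vps13c encodes a lipid-transfer protein at membrane contact sites (ENSMUSG00000035284, chromosome 9, 67747669 to 67905024). Vps13c was at 44.6, 38.1, 36.8, 44.8 and 41.9 CPM in untreated mice, at 47.5, 48.9, 46.5, 49.4 and 56.7 after early ND and at 63.1, 55.0, 56.2, 67.2 and 64.3 after late ND. All 10 treated mice lay above all untreated mice. The log2 fold change was 0.42 (SE 0.09, unadjusted p = 0.000161, adjusted p = 0.350 from edgeR's test), with 0.27 after early ND and 0.57 after late ND.

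Ptprs encodes a receptor-type tyrosine phosphatase (ENSMUSG00000013236, chromosome 17, 56718507 to 56783537). It was at 7.24, 8.70, 5.18, 7.77 and 7.58 CPM in untreated mice, at 12.1, 12.6, 10.8, 10.5 and 8.95 after early ND and at 10.3, 12.5, 12.001, 10.7 and 15.7 after late ND. Again the groups did not overlap, though the lowest treated mouse was close to the highest untreated one. The log2 fold change of Ptprs was 0.65 (SE 0.14, unadjusted p = 0.000298, edgeR), with 0.57 after early ND and 0.72 after late ND.

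Dna2, a nuclease and helicase of DNA replication and repair (ENSMUSG00000036875, chromosome 10, 62782733 to 62809965), had the smallest unadjusted p on the higher side. It was at 8.04, 8.98, 12.1, 14.4 and 13.1 CPM in untreated mice, at 16.7, 13.3, 14.6, 19.1 and 25.8 after early ND and at 24.6, 22.4, 23.0, 30.1 and 31.5 after late ND. Only 1 treated mouse, early ND 2, lay within the untreated range. The log2 fold change was 0.92 (SE 0.17, unadjusted p = 6.23e-05, adjusted p = 0.350 from edgeR's test). Dna2 was past the adjusted threshold with DESeq2 (adjusted p = 0.00601) and in edgeR's fit blocked on replicate number (adjusted p = 0.0179).

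Of the remaining higher genes, Myo7a, an unconventional myosin, had similar estimates in both groups, at 0.74 after early ND and 0.86 after late ND. Atf3, a transcription factor of the stress response, had 0.72 and 1.05, and Plxnd1, a semaphorin receptor, 0.60 and 1.16. Slc43a2, a transporter of neutral amino acids, had 0.25 and 0.57. For 3 genes the late ND shift was larger than the early ND shift by a test of that difference with adjustment over all genes. These were Olfm1, a secreted glycoprotein (0.53 and 1.75, adjusted p of the difference 0.0256, edgeR), Ms4a8a, a membrane protein of the MS4A family (0.29 and 1.45, adjusted p = 0.0215, edgeR), and Abca9, a lipid transporter of the ABC family (0.51 and 1.35, adjusted p = 0.0424, edgeR). The difference between the groups passed for 749 of all genes tested (5.58%). Among the 84 named genes it passed for 18, a count that was 0 when early ND 4, late ND 3, late ND 4 or late ND 5 was left out, 11 without early ND 1, 10 without early ND 2, 0 with the hemoglobin share as a covariate and 1 without the 3 libraries poor in 18S RNA.

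Across the 20 genes the pooled fold change ran from 1.33 to 2.21 on the higher side and from 0.397 to 0.773 on the lower side. By itself, the late ND group had an adjusted p under 0.05 for 19 of the 20 (edgeR), and the early ND group an unadjusted p under 0.05 for 15. In 19 of the 20 the late ND estimate was the larger in size. These genes were chosen on the same contrast, so these counts describe them and test nothing.

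**Figure D2:**
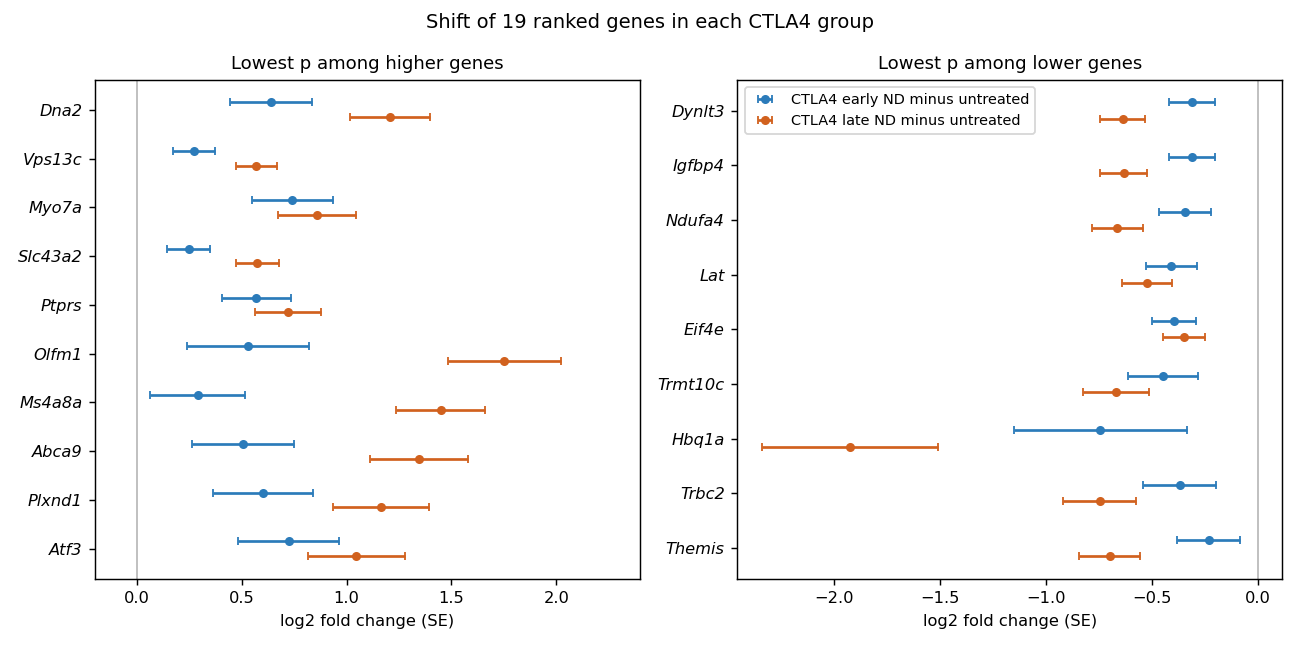
Log2 fold change against untreated mice, with its SE, of the 10 genes with the smallest unadjusted p on the higher side and 9 of the 10 on the lower side, in early ND and late ND mice (5 and 5). Every estimate has the same sign in both groups, and of these 19 only Eif4e, at -0.40 and -0.35, is larger in size after early ND.

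A separation of every treated mouse from every untreated mouse was seen for 7 genes on the higher side (0.0522% of genes tested) and 2 on the lower side (0.0149%). With arbitrary labels, a gene separates fully in a given direction with a probability of 0.000333. The share on the higher side lies above that value and the share on the lower side below it. Such a separation by itself therefore does not set a gene apart from chance, and an excess over chance was not tested. Fewer libraries are easier to separate, and without untreated 2 alone the counts were 28 and 15. Leaving out 1 library moved the higher count by over 1.5 times for 8 of the 15 libraries and the lower count for 13. Lat was on the lower side. The higher genes were Vps13c, Ptprs, Tbk1, Mrpl36, Has3, Bcor and Flt1, of which the last 5 are named after their values were seen. Flt1, a receptor for vascular endothelial growth factor, was at 1.18 to 2.41 CPM in untreated mice and at 2.81 to 6.33 in treated mice, with a mean of 31.9 counts per library. It had a log2 fold change of 1.19 (unadjusted p = 0.000285, edgeR), the larger part of it after early ND (1.36 against 1.02). Bcor, a transcriptional corepressor, was at 22.9 to 25.8 CPM in untreated mice and at 26.7 to 37.3 in treated mice, a log2 fold change of 0.37. Tbk1, the kinase of innate nucleic acid sensing, had 0.25, Has3, a hyaluronan synthase, 0.31 and Mrpl36, a protein of the mitochondrial ribosome, 0.31. For Tbk1 the separation rested on 28.5482 CPM in late ND 5 against 28.5409 in untreated 1.

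**Figure D3:**
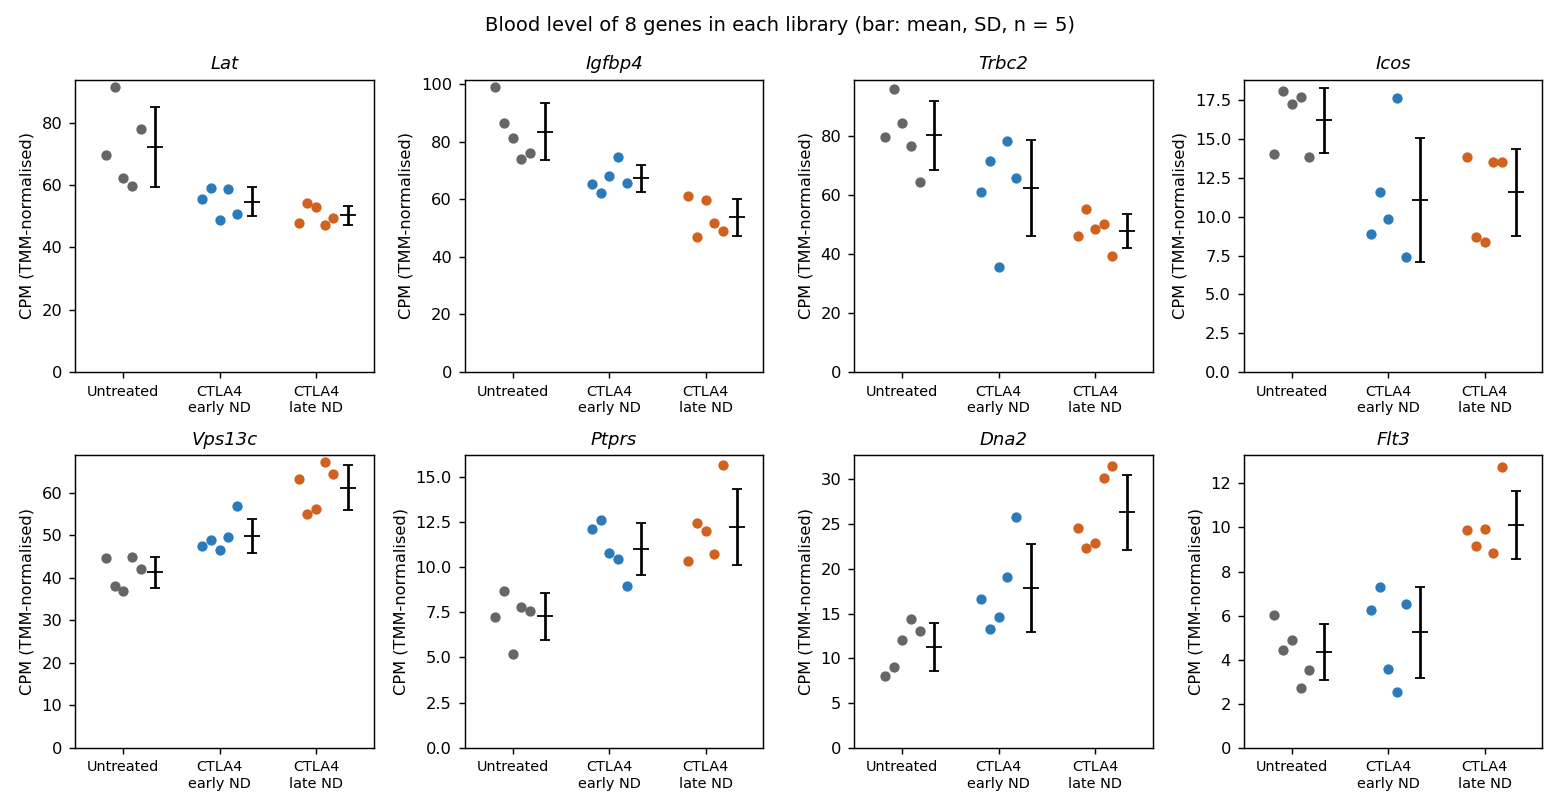
TMM-normalised CPM of Lat, Igfbp4, Trbc2, Icos, Vps13c, Ptprs, Dna2 and Flt3, with 1 point per library and the mean and SD (n = 5) of each group beside the points. All 10 treated mice lie below the untreated mice for Lat and above them for Vps13c and Ptprs, while Igfbp4, Trbc2, Icos, Dna2 and Flt3 overlap.

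Most T cell receptor genes were on the lower side in both groups. Of the 18 genes for the T cell receptor complex, its coreceptors and proximal kinases, all tested, 10 had an unadjusted p under 0.05 on the lower side, against 3.41% of all genes, and 0 on the higher side, and 0 passed after adjustment (edgeR). Their median log2 fold change was -0.32, with -0.14 after early ND and -0.46 after late ND, beside a median of all genes within 0.01 of 0 in each. Beside Lat and Trbc2, the 10 included the receptor chains Cd3g (-0.49), Trac (-0.47) and Cd3d (-0.43), the surface protein Thy1 (-0.44), and the kinases Lck (-0.32) and Zap70 (-0.29). The coreceptors Cd4 (-0.23, unadjusted p = 0.231) and Cd8a (-0.31, unadjusted p = 0.0550) did not reach that level, nor did Cd3e (-0.16, unadjusted p = 0.262, edgeR). Both groups were below untreated mice for 15 of the 18 genes and above for 0, against 27.7% of all genes below in both. In both groups, each by itself, 2 of the 18 had an unadjusted p under 0.05 on the lower side, Lat and Trbc2 (edgeR). The share of all genes at that level was 0.313%. The summed level of the 18 genes was 698 to 994 CPM in untreated mice, 494 to 869 after early ND and 521 to 646 after late ND. Every late ND mouse was thus below every untreated mouse, while early ND mice overlapped with them. The count of 10 was 6 with the hemoglobin share as a covariate, 6 without the 3 libraries poor in 18S RNA and 5 without untreated 2 alone. With library totals the list median was 0.15 and 0 of the 18 were on the lower side, though relative to the median of all genes it was still -0.32.

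Of 14 genes tested for naive and central memory T cells, 3 had an unadjusted p under 0.05 on the lower side, Igfbp4, Tcf7 and Satb1, and 0 on the higher side. The share of all genes at that level was 3.41% on the lower side and is the background for the other counts of this paragraph too, of which 2 of 18 is the smallest. Tcf7, a transcription factor that maintains these cells, had a log2 fold change of -0.37 (unadjusted p = 0.0261, edgeR), and the list median was -0.21. The 3 became 1 without untreated 1, without untreated 2 or with the hemoglobin share as a covariate, and 5 without untreated 5. Among 15 genes tested of T cell activation and helper subsets, 4 were on the lower side. They included Cxcr6, a chemokine receptor of resident and activated T cells (-0.65, unadjusted p = 0.0146), Cd40lg (-0.71) and Cd69 (-0.34), by edgeR's test, a count that was 2 without untreated 2 and 2 without the 3 libraries poor in 18S RNA. Of 18 genes tested for cytotoxic T and NK cells, 2 were on the lower side, the inhibitory NK receptor gene Klrc1 (-0.60, unadjusted p = 0.00214) and the granule gene Nkg7 (-0.26, unadjusted p = 0.0447, edgeR), and 0 on the higher side. Granzyme genes had small estimates, with -0.12 for Gzmb and -0.07 for Gzma.

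Ctla4, the target of the antibody, was measured at a low level. Ctla4 (ENSMUSG00000026011, chromosome 1, 60926159 to 60954991) was at 4.02, 6.47, 5.47, 3.38 and 3.55 CPM in untreated mice, at 5.99, 6.13, 2.46, 3.25 and 2.84 after early ND and at 3.72, 3.41, 5.21, 3.77 and 3.28 after late ND. The groups overlapped, and the log2 fold change was -0.20 (SE 0.24, unadjusted p = 0.423, adjusted p = 0.907 from edgeR's test). An antibody against the protein does not remove the transcript, so Ctla4 is no check of the labels. Cd28, the activating partner of the same ligands, had -0.26 (unadjusted p = 0.158). Icos, an inducible costimulatory receptor of activated T cells, was at 14.1, 18.1, 17.3, 17.7 and 13.9 CPM in untreated mice, at 8.92, 11.6, 9.85, 17.7 and 7.42 after early ND and at 13.9, 8.70, 8.37, 13.5 and 13.5 after late ND. Of the 10 treated mice 8 lay below every untreated mouse. Its log2 fold change of -0.55 (SE 0.18, unadjusted p = 0.00778, adjusted p = 0.533 from edgeR's test) was made up of -0.59 in early ND and -0.50 in late ND. Pdcd1, which encodes PD-1, had -0.98 (SE 0.45, unadjusted p = 0.0441, edgeR) at a mean of 11.5 counts per library. Of the 15 genes tested of this pathway, Icos and Pdcd1 were the 2 with an unadjusted p under 0.05 on the lower side, against 3.41% of all genes, and 0 were on the higher side. With the hemoglobin share as a covariate, and without the 3 libraries poor in 18S RNA, 0 were on the lower side, and 8 of the 15 libraries left out singly took the count to 1.

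Cd274, which encodes the PD-1 ligand PD-L1, was not shared between the groups. It was at 21.3, 24.0, 32.8, 32.4 and 22.3 CPM in untreated mice, at 39.99, 37.8, 37.4, 40.4 and 35.6 after early ND and at 29.7, 20.8, 19.7, 24.3 and 23.4 after late ND. Every early ND mouse lay above every untreated and late ND mouse. The log2 fold change was 0.52 after early ND and -0.18 after late ND, and the difference between them passed (-0.70, adjusted p = 0.0215, edgeR). Foxp3, which defines regulatory T cells, had 0.20 (SE 0.21, unadjusted p = 0.349), with 0.26 after early ND and 0.14 after late ND. Of the 12 regulatory T cell genes tested, 0 had an unadjusted p under 0.05 with a shared direction, and the 2 with the smallest p were Tnfrsf18 (-0.38, unadjusted p = 0.0678) and Ikzf4 (-0.37, unadjusted p = 0.268, edgeR). The list median was -0.10.

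Of 14 classical monocyte genes, 11 were above untreated mice in both groups and 0 below in both, against 27.7% of all genes for each. On the higher side 4 had an unadjusted p under 0.05 with a shared direction, against 3.61% of all genes, 0 passed after adjustment (edgeR), and the list median was 0.43, with 0.14 after early ND and 0.74 after late ND. The larger part of the shift was thus in late ND mice. In both groups, each by itself, 0 members had an unadjusted p under 0.05 (edgeR). Some members, Fn1 and Chil3 among them, reached that level in late ND mice but not in early ND mice. The difference between late ND and early ND passed the adjusted threshold for 5 of the 14 (edgeR), against 5.58% of all genes. Chil3, a secreted chitinase-like protein of monocytes and neutrophils, was at 567, 241, 154, 383 and 303 CPM in untreated mice, at 362, 194, 723, 291 and 770 after early ND and at 792, 820, 1028, 772 and 1018 after late ND. The late ND mice were above all untreated mice, and 2 of the 5 early ND mice were. Its log2 fold change was 0.97 (SE 0.33, unadjusted p = 0.00873, edgeR). Fn1, fibronectin, had 0.95 (unadjusted p = 0.0110), made up of 0.14 after early ND and 1.76 after late ND, which differed from each other (adjusted p = 0.0276, edgeR). Vcan (0.75) and the chemokine receptor gene Ccr2 (0.60) were the other members on the higher side. The count of 4 was 1 without the 3 libraries poor in 18S RNA, 1 without untreated 2 alone and 10 without untreated 4 alone. It was 2 without untreated 3 or early ND 5, 8 without early ND 2 and 7 without early ND 3.

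Of 15 dendritic cell genes tested, 4 were on the higher side at an unadjusted p under 0.05, against 3.61% of all genes, and 0 on the lower side. After adjustment 0 passed (edgeR). In both groups, each by itself, 0 had an unadjusted p under 0.05, against 0.611% of all genes on the higher side. The list median was 0.28 (0.19 after early ND, 0.40 after late ND). Flt3 is the receptor of the growth factor on which dendritic cells depend (ENSMUSG00000042817, chromosome 5, 147267551 to 147337483). It was at 6.03, 4.45, 4.89, 2.704 and 3.55 CPM in untreated mice, at 6.24, 7.29, 3.56, 2.53 and 6.55 after early ND and at 9.89, 9.18, 9.94, 8.86 and 12.8 after late ND. The late ND mice were above all others, and early ND mice spanned the untreated range. Flt3 had a log2 fold change of 0.81 (SE 0.23, unadjusted p = 0.00265, edgeR), and Cd209a, a lectin of monocyte-derived and conventional dendritic cells, 0.99 (unadjusted p = 0.00230, edgeR). Both differed between late ND and early ND (adjusted p = 0.0382 and 0.0278, edgeR). Tlr9 had 0.48 and Irf8, the factor required for cDC1 cells, 0.31, of which Irf8 was not larger after late ND (0.40 after early ND, 0.23 after late ND). The cDC1 genes Clec9a (0.23, unadjusted p = 0.254) and Xcr1 (-0.07, unadjusted p = 0.842) had smaller estimates. The count of 4 was 2 without the 3 libraries poor in 18S RNA and 7 without untreated 4. Of 18 Fc gamma receptor and complement genes tested, 1 was on the higher side, a share near that of all genes. It was Fcgr2b, the inhibitory Fc receptor (0.43, unadjusted p = 0.0149, edgeR), with 0.11 after early ND and 0.75 after late ND. That difference between the groups passed (adjusted p = 0.0475, edgeR). Fcgr1 had 0.69 (unadjusted p = 0.0522, edgeR). The median of this list was 0.15, with -0.04 after early ND and 0.49 after late ND. Among 12 nonclassical monocyte genes tested, Pou2f2 had 0.40 (unadjusted p = 0.0253, edgeR), with 0.40 and 0.39 in the groups. Cd36 had 0.32 after early ND and -1.74 after late ND.

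**Figure D4:**
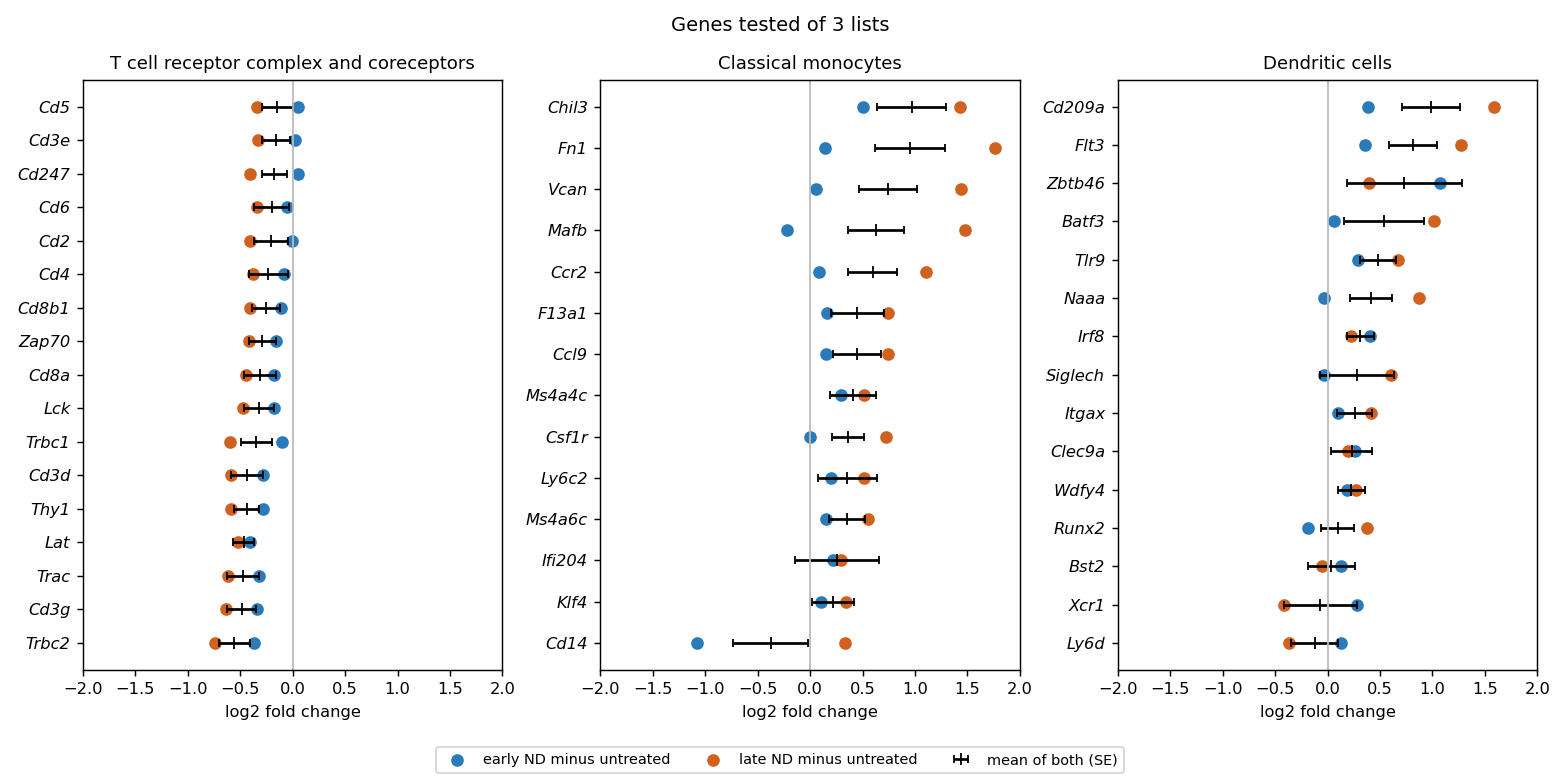
Log2 fold change of genes tested for the T cell receptor complex (17 of 18), classical monocytes (14) and dendritic cells (15), in early ND and late ND mice against untreated mice, with the mean of both groups and its SE. The T cell medians over 18 genes are -0.14 and -0.46, the monocyte medians 0.14 and 0.74, and the dendritic cell medians 0.19 and 0.40.

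Several lists had a pooled shift that belonged to 1 group. The erythroid list, 26 genes tested of membrane, heme and reticulocyte proteins, had a pooled median of -1.06, composed of 0.03 after early ND and -2.21 after late ND. For 20 of its 26 genes the difference between late ND and early ND passed the adjusted threshold (edgeR), against 5.58% of all genes, and 8 had an unadjusted p under 0.05 on the lower side with a shared direction, against 3.41%, a count that ran from 0 to 18 as single libraries were left out. It was 0 without untreated 1, 18 without untreated 5 or early ND 4, 17 without untreated 2, 15 without early ND 5, 3 without early ND 1 and 4 without early ND 3. Slc4a1, the anion exchanger of red cells, had -0.07 after early ND and -2.84 after late ND, and Kel, a blood group protein, -0.15 and -2.58. The 4 hemoglobin genes had a median of -1.37. Hba-a2 had -0.54 and -2.24, Hbb-bt -0.21 and -2.67, and both have near-identical copies among which reads may be split. The cell cycle list (21 tested) had 0.09 and -0.45, with 4 genes at that level on the lower side. Ube2c had 0.10 and -2.31 and Tpx2 -0.19 and -1.76, while Mki67, the proliferation antigen, had a pooled 0.04 (unadjusted p = 0.872, edgeR) from 0.35 and -0.28. In the 24 type I interferon-stimulated genes tested, the 2 smallest p-values were those of Isg20 (-0.11 after early ND, -2.27 after late ND) and Rsad2 (0.23 and -2.42). These 2 genes do not stand for the list, whose median was 0.05, with 0.25 after early ND and -0.07 after late ND. Of its genes, 7 were above untreated mice in both groups and 2 below in both, against 27.7% of all genes for each. The summed erythroid level was 13820 to 80676 CPM in untreated mice, 16098 to 72533 after early ND and 4976 to 10728 after late ND. The part of red cell RNA in the shifts of Isg20, Rsad2, Ube2c and Tpx2 was not tested.

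Neutrophil lists went opposite ways. The median of 18 mature neutrophil genes was -0.83 after early ND and 0.33 after late ND, and that of 12 granule genes -0.64 and 0.41. The alarmin genes S100a8 (-1.17 after early ND, 0.03 after late ND) and S100a9 (-1.08 and -0.04) and the granule genes Prtn3 (0.18 and 1.61) and Lyz2 (0.04 and 0.69) had the smallest p-values of these lists. Platelet genes (19 tested) had medians of 0.11 and -0.35, with -0.32 pooled for Ppbp and -0.26 for Pf4, and 10 mitochondrially encoded genes 0.12 and -0.63, with -0.33 for mt-Nd6 and -0.30 for mt-Nd4. In these 4 lists 1 gene, Prtn3, had an unadjusted p under 0.05 with a shared direction (0.90, unadjusted p = 0.0360, edgeR).

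**Figure D5:**
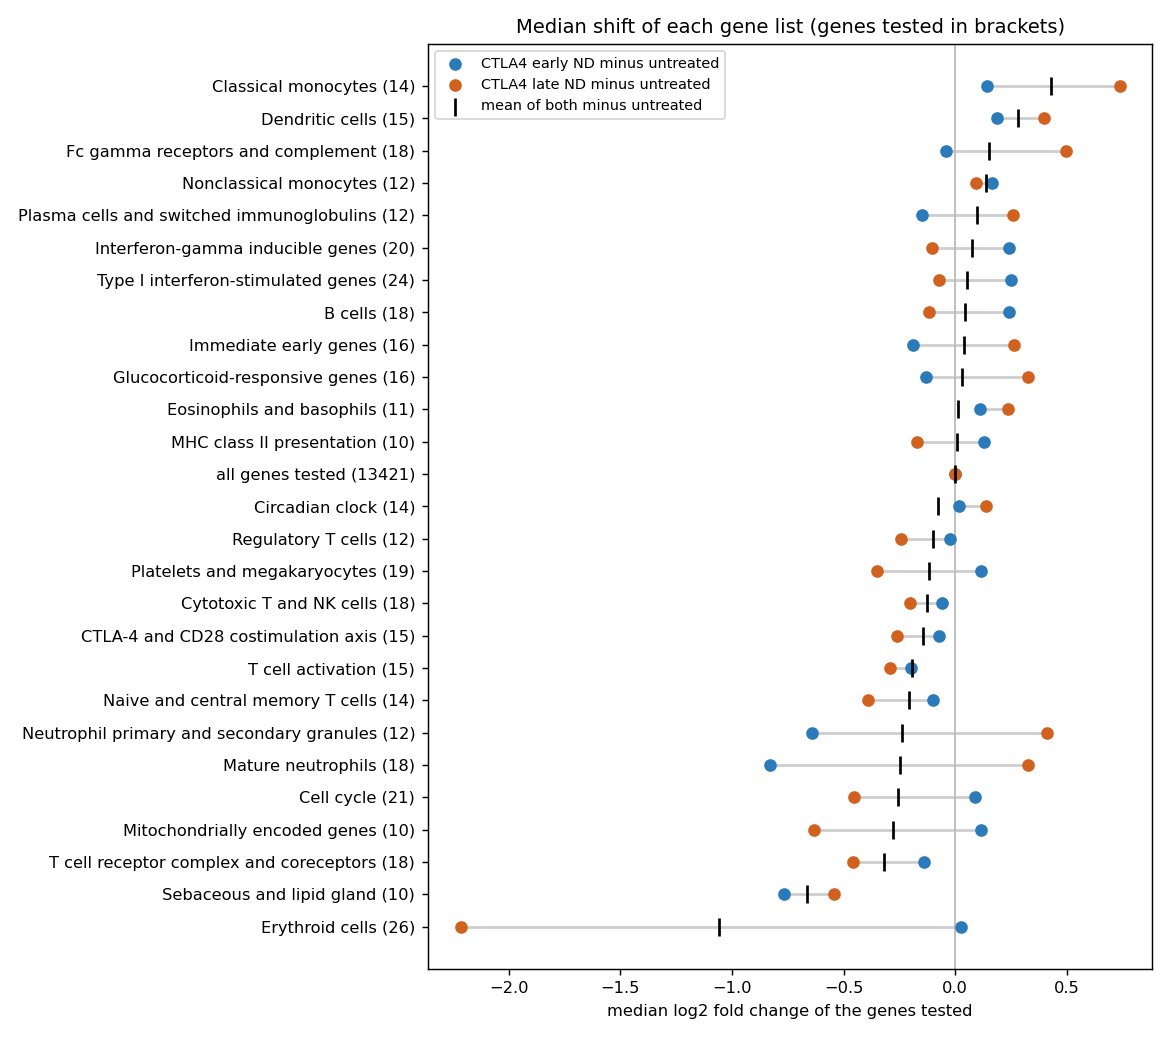
Median log2 fold change of the genes tested in each list with at least 10, against untreated mice, for early ND, late ND and the mean of both. T cell, monocyte and dendritic cell lists have both groups on 1 side of 0, while erythroid (0.03 and -2.21) and neutrophil lists (-0.83 and 0.33 for mature neutrophils) have not.

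B cell genes had a median of 0.04 over 18 tested, made up of 0.24 after early ND and -0.12 after late ND. Of the 18, 1 was above untreated mice in both groups and 0 below in both, against 27.7% of all genes for each. None had an unadjusted p under 0.05 (edgeR). Cd37 had 0.14 (0.12 after early ND, 0.15 after late ND) and Pax5 0.18 (0.38 and -0.02). Among 12 plasma cell and switched immunoglobulin genes, Ighg1 had -1.17 (unadjusted p = 0.0168) and Ighg3 1.20 (unadjusted p = 0.0179, edgeR), with 22.6 and 10.7 counts per library on average, and reads can be split among the similar Ighg genes. Ighg1 averaged 3.75 ± 2.03 CPM in untreated, 1.04 ± 0.53 in early ND and 2.61 ± 1.59 in late ND mice (SD, n = 5 each). Of 20 interferon-gamma inducible genes tested, 1 was on the higher side, a share near the 3.61% of all genes. This was the chemokine gene Cxcl10 (1.79, SE 0.51, unadjusted p = 0.00268, adjusted p = 0.533 from edgeR's test), at 0.32 ± 0.40 CPM in untreated, 1.82 ± 0.51 in early ND and 0.76 ± 0.32 in late ND mice (SD, n of 5 each), with a mean of 8.13 counts per library. Socs1, a feedback inhibitor of the same pathway, had -0.47 (unadjusted p = 0.05001). The 10 MHC class II genes had a median of 0.01 (0.13 after early ND, -0.17 after late ND), led by Ctss (0.32) and H2-DMb1 (0.15). The 11 eosinophil and basophil genes had 0.01 (0.11 and 0.23), led by Il5ra (0.50) and Il1rl1 (-0.23). In either list, 0 members had an unadjusted p under 0.05 with a shared direction (edgeR).

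Lists of other programs held few genes on the higher side at an unadjusted p under 0.05, 1 of 14, 2 of 16 and 1 of 16, beside 3.61% of all genes. In 14 circadian clock genes tested, Per3 had 0.84 (0.98 after early ND, 0.70 after late ND, unadjusted p = 0.0143), and Tef -0.28 (0.04 and -0.59). Among 16 glucocorticoid-responsive genes, Ddit4, an inhibitor of mTORC1, had 0.56 (unadjusted p = 0.0163) and Zbtb16 0.68 (unadjusted p = 0.0450, edgeR). Atf3 was the 1 immediate early gene of 16 on the higher side, and Jund, whose exons overlap another gene over more than 40% of their length on the opposite strand, had -0.21. The list medians were -0.08 for the circadian list (0.02 after early ND, 0.14 after late ND) and 0.03 for the glucocorticoid list (-0.13 and 0.33). For the immediate early list the median was 0.04 (-0.19 and 0.26).

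Genes of tissues that a cheek bleed can touch were followed as well. Of 20 keratinocyte genes 5 passed the filter on low counts, with -0.73 for Perp (0.68 without untreated 5) and 0.55 for Krt6a, and Flg and Krtdap were at 0 in every library. Of 14 muscle genes 4 passed, with -0.23 for Mylpf and 0.17 for Tnnt3. The 10 sebaceous gland genes tested of 15 had a median of -0.66, with 9 below untreated mice in both groups and 0 at an unadjusted p under 0.05. Far2 had -0.94 and Mc5r -1.28 (0.16 and 0.81 without untreated 5). This median was set by untreated 5, without which it was 0.81. The summed level of that list was 395 to 5101 CPM in untreated mice, 352 to 2748 after early ND and 445 to 2631 after late ND, so the ranges overlapped.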

How the data were processed

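The authors aligned paired-end reads to GRCm39 with STAR 2.7.9, sorted them with SAMtools 1.7 and deposited raw read-pair counts per gene from HTSeq 0.13.5 without normalization. The labels also list mm10, and the annotation release and strand setting are not given in the sources used here. HTSeq's counters for unassigned pairs were kept out of library sizes. Of 55416 gene identifiers, 54749 matched the GRCm39 annotation used for symbols and positions. Groups came from the labels, and p-values measure the spread between these 15 libraries, 1 per mouse. None was a duplicate of another library of its own group by a chi-square comparison of counts, and pairs across groups were not compared in this way. In R 4.3.3 with edgeR 4.0.16, genes were filtered by filterByExpr, scaled by TMM and tested with a 3-group quasi-likelihood model and Benjamini-Hochberg adjustment (threshold 0.05). Standard errors were derived from the F statistic. Library measures were tested by exact permutation, over 3003 splits for 10 against 5 libraries (smallest p 0.000333). For 5 against 5 there were 252 splits, and p = 0.00794 is the smallest that this two-sided permutation test can give. Lists were described by counts and medians, with no set test. The text names the 10 genes per direction with the smallest unadjusted p (shared direction, mean of at least 50 counts), since 0 passed adjustment, the 2 members of each of 29 lists with the smallest p, and 7 genes of the CTLA-4 pathway, Foxp3 and Mki67 included. The members and lists were chosen with earlier results of these data known. Alternatives were DESeq2 1.42.0, limma 3.58.1, 3 other treatments of normalization, 2 other filters, covariates and libraries left out. On simulated counts for the 10 against 5 comparison, with 12990 genes, 79 of 100 changes of 1 on the log2 scale and 97 of 99 of 2 were recovered with 12 false calls. The simulation gave early ND and late ND the same shift and changed only genes above a minimum level. It held no difference between the treated groups, so these rates do not measure recovery in the real comparison. Results for some genes are not reported here.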

Additional observations from a re-analysis of the deposited data

Results flagged for a closer look

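Of 264 groups of 5 libraries examined for the named genes and library measures, 20 held a library far from the other 4 by Dixon's criterion, which chance gives in about 1 of 20 groups. Levels here are TMM-normalised CPM. Among the genes named in the report for their own values, Vps13c was high in early ND 5 at 56.7, Trmt10c was high in late ND 2 at 9.22, Ctla4 was high in late ND 3 at 5.21 and Flt3 was high in late ND 5 at 12.8. Nkg7 was low in late ND 5 at 16.2, Ighg1 low in early ND 1 at 0.127 and Ighg3 low in late ND 3 at 0.569. Cxcl10 was high in untreated 4 at 1.01 and Socs1 high in late ND 1 at 7.17. In untreated 5, Ppbp was low at 612 and mt-Nd4 high at 1314. Counts on genes were high in untreated 2, at 10796100.

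The same 3 libraries were high for genes of skin and its glands. Perp was at 11.4 in untreated 5, 4.79 in early ND 3 and 6.13 in late ND 5. Far2 was at 109.6 in untreated 5 and 42.3 in early ND 3. Mc5r was at 25.0 in untreated 5, 9.99 in early ND 3 and 7.83 in late ND 5.

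For 18 named genes the late ND shift differed from the early ND shift (edgeR's test of the difference, adjusted over all genes). Late ND was higher by a log2 difference of 1.22 for Olfm1 (adjusted p = 0.0256), 1.16 for Ms4a8a (0.0215), 0.84 for Abca9 (0.0424), 1.62 for Fn1 (0.0276), 1.43 for Prtn3 (0.0496), 1.20 for Cd209a (0.0278), 0.92 for Flt3 (0.0382) and 0.63 for Fcgr2b (0.0475). The difference was -0.70 for Cd274 (0.0215), -2.42 for Ube2c (0.0238), -1.58 for Tpx2 (0.0426), -2.16 for Isg20 (0.0264), -2.64 for Rsad2 (0.0238) and -2.06 for Cd36 (0.0215). It was -2.77 for Slc4a1 (0.0238), -2.43 for Kel (0.0249), -2.46 for Hbb-bt (0.0437) and -0.63 for Tef (0.0276). The hemoglobin share of gene counts was 48.5% in early ND and 21.97% in late ND mice, and its part in these differences was not tested.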

How the results depend on the processing

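The count of 0 genes past the adjusted threshold in either direction held in every edgeR and limma alternative except the replicate block, which gave 2 higher (Dna2 and Abca9) and 0 lower. DESeq2 gave 8 higher and 5 lower. The replicate numbers were not taken as pairs, since not every same-numbered pair of libraries had deviations that correlated over 0.1. It did so in 0 of 5 pairs of untreated and early ND, 4 of 5 of untreated and late ND and 1 of 5 of early and late ND. The cause of the changes below was not tested, except where a count follows from fewer libraries or another set of genes.

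At an unadjusted p under 0.05, 268 genes were lower with the 10 treated mice as 1 group. Unlike the other counts here, that count sets no condition on a shared direction. Library totals gave 1845 higher and 13 lower, and 54 and 1 in each group by itself. Without a filter on low counts, when 29398 genes were tested, these were 779, 1043, 174 and 85. With single libraries left out the lower count ran from 267 (without untreated 1) to 629 (without early ND 5). The counts in each group by itself ran from 57 to 124 (without untreated 4) on the higher side and from 32 to 66 (without untreated 2) on the lower side.

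Genes with no overlap numbered 4 higher and 0 lower with library totals, 4 lower with RLE size factors, 9 lower without a filter, and 30 and 20 without the 3 libraries poor in 18S RNA, where fewer libraries had to separate. With single libraries left out they ran from 6 to 28 higher (without untreated 2 or 5) and from 3 to 15 lower (without untreated 2). The 18 late ND against early ND differences became 42 with library totals, 0 with the hemoglobin covariate, 1 without the 18S-poor libraries and 0 to 18 with single libraries left out.

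The sign turned for Mki67 (-0.11) and Tnnt3 (-0.12) without the 18S-poor libraries, and for Hbb-bt (0.060) and Jund (0.037) with the hemoglobin covariate. With single libraries left out, Ctla4 ran from -0.30 to 0.0023, Mki67 from -0.079 to 0.21, Perp from -1.14 to 0.68, Far2 from -1.28 to 0.16 and Mc5r from -2.30 to 0.81. Against untreated mice, early ND by itself differed by -682502 gene counts, 0.167 points of hemoglobin share and 1.08 points of pairs aligned to more than 1 place, and late ND by 3826390, -26.4 and -16.1. Genes under 50 counts per library, such as Pdcd1 and Cxcl10, were measured with low precision.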
